A study of Mus musculus with 4 samples.

Results

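Matrix metalloproteinases (MMPs) are zinc-dependent proteases that cut collagens, elastin and other proteins of the extracellular matrix. Tissue inhibitors of metalloproteinases (TIMPs) are small secreted proteins that bind their active site. 9 of these genes were followed in 4 populations of myeloid cells from the mouse large intestine: the proteases Mmp2, Mmp3, Mmp9, Mmp12, Mmp13 and Mmp14, and the inhibitors Timp1, Timp2 and Timp3. They were taken as every probe set of the array that names one of these genes and no other, which gave 20 of 22690 probe sets, and 9 of 12393 genes.

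All cells were sorted from large-intestinal lamina propria, a layer of connective tissue below the epithelium, of C57BL/6J mice, with no agent or engineered allele named in the labels and no age given. The sort used CD11c, CD11b and CX3CR1, the receptor for fractalkine. CX3CR1high macrophages were positive for the first 2 and had the most CX3CR1. CX3CR1- cells were also positive for the first 2 but lacked CX3CR1, and one of their labels also calls them DC. CD11b+ cells were negative for CD11c, and one of their labels calls them Mf, a term that a label of the CX3CR1high macrophages also holds. CD11chigh dendritic cells (DCs) were negative for CD11b, and one of their labels reads CD103. Each population had 1 Affymetrix 3′ array, and the sources used here do not say how many mice it stands for. With no replicates there is no test and no standard error, and the ratios are only as precise as single arrays allow. The series was set up around the transcription factor Spic in the CX3CR1high macrophages.

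Most MMPs are secreted as inactive proenzymes and become active when a propeptide is cut off, by plasmin, by other MMPs or, for the membrane-bound ones, by furin inside the cell. In the gut wall fibroblasts make much of the matrix and many of these enzymes, and macrophages, neutrophils and DCs make others. In bulk samples of this kind, fewer cells of a type and less RNA per cell cannot be told apart.

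Values are linear signals on the authors' scale, on which all arrays share 1 trimmed mean. Signals under 103, the median of all probe sets, were treated as low and set to this floor before a ratio was taken. Where 1 population of a pair lay under the floor the ratio is a lower bound, and where both did no ratio is given. Calls of higher or lower needed 2-fold. Between probe sets of the same gene the SD of log2 ratios ran from 0.31 to 0.52 over the 6 pairs of populations, which holds no difference between mice or between sorts. The sum of 12 macrophage markers was 191344 for CX3CR1high macrophages, 130412 for CD11b+ cells, 91089 for CX3CR1- cells and 35085 for DCs. In the DCs Mertk, Mrc1, Cd163 and Cx3cr1 lay under the floor. The sum of 11 DC markers was 4822 for CX3CR1high macrophages, 6475 for CD11b+ cells, 46820.4 for CX3CR1- cells and 44786 for DCs. The near-equal last 2 sums hold different genes. By the 2-fold limit given above, CX3CR1- cells over DCs had 1 of 11 higher, Ccl22 (15935 against 6194). The 4 lower were Itgae (374 against 4962), Flt3 (837 against 2579), Dpp4 (759 against 1866) and Xcr1 (42.1, under the floor, against 658). The CD11c gene Itgax had a signal of 1864 in the CD11b+ cells, gated as CD11c-negative, and 1826 in the CX3CR1high macrophages, gated as positive, so these arrays did not differ in it. Cx3cr1 was at 291 in the CX3CR1- cells, above the floor in a population gated as lacking it, against 1499 in the CX3CR1high macrophages. The ratio of 3′ over 5′ signals of the Gapdh control, a ratio that rises with RNA breakdown, was 1.08 in the CX3CR1high macrophages, 3.40 in the CX3CR1- cells, 2.17 in the CD11b+ cells and 0.791 in the DCs. For the Actb control it was 1.68, 2.76, 3.18 and 1.11 in that order, which puts the CD11b+ cells highest. The part of RNA quality in the ratios below was not tested.

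Of the 9 genes, 8 reached the floor in at least 1 population, and the stromelysin Mmp3 in none. Among the 8, 4 had their highest signal in the CX3CR1- cells (Mmp12, Mmp13, Mmp14 and Timp1), 2 in the CX3CR1high macrophages (Mmp9 and Timp2) and 2 in the CD11b+ cells (Mmp2 and Timp3). None was highest in the DCs, and 7 of the 8 were lowest there. The exception was Mmp12, which was lowest in the CD11b+ cells. 3 of these leads were small: the highest signal was within 1.14-fold of the next for Mmp13, Mmp9 and Mmp14.

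**Figure D1:**
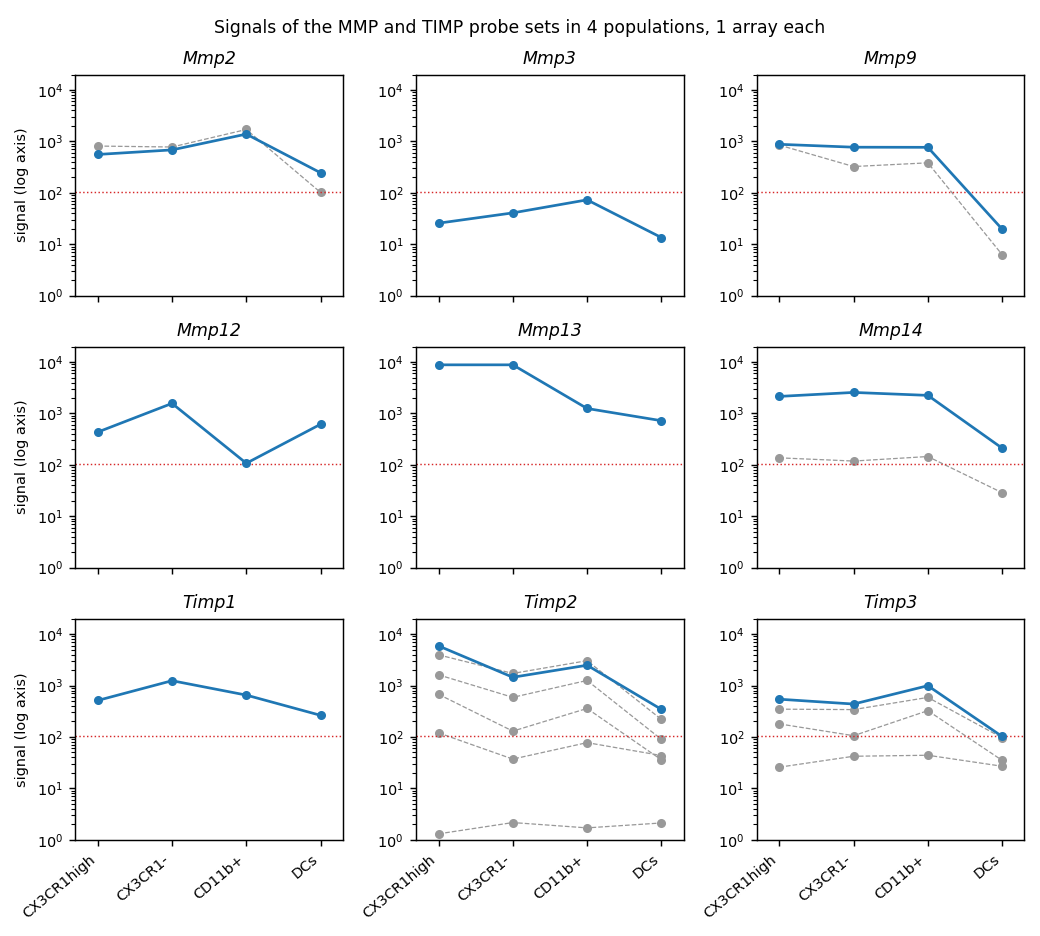
Signals of every probe set of the 9 genes (log axis, signal units) in the 4 populations, with 1 array each; the blue line is the probe set taken for the gene, grey lines are its other probe sets, and the red dotted line is the floor of 103. Mmp13 was at 8835 and 8837 in the CD11c+ CD11b+ populations, Mmp12 peaked in the CX3CR1- cells, and Mmp3 lay under the floor.

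Mmp13 is a collagenase, able to cut the triple helix of fibrillar collagen. Its signal was 8835 in the CX3CR1high macrophages, 8837 in the CX3CR1- cells, 1250.2 in the CD11b+ cells and 723 in the DCs. Both populations that carry CD11c and CD11b were high and could not be told apart, while the CD11b+ cells and the DCs were low and differed from each other by 1.73-fold. The CX3CR1high macrophages stood 7.07-fold above the CD11b+ cells, the 19th largest ratio of 7512 genes with one, and 12.2-fold above the DCs. Mmp13 has 1 probe set on the array, so no other set of the gene stands beside these values.

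Mmp12, the macrophage elastase, which cuts elastin, had another order. Its signal was 1570.0 in the CX3CR1- cells, 617 in the DCs, 434 in the CX3CR1high macrophages and only 107 in the CD11b+ cells, the last just above the floor. The CX3CR1- cells stood 14.6-fold above the CD11b+ cells, which ranked 7 of 7377 genes with a ratio. They were also 3.61-fold above the CX3CR1high macrophages and 2.54-fold above the DCs. The DCs and the CX3CR1high macrophages differed by 1.42-fold, under the 2-fold limit. Mmp12 was the only one of the 8 genes with a higher signal in the DCs than in the CX3CR1high macrophages. It also has 1 probe set.

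Mmp13 and Mmp12 lie next to each other on chromosome 9, at 1 end of a run of 10 MMP genes. In RefSeq (GRCm38.p6) all 10 protein-coding genes that start within this run are MMPs. Of the 9 that a single-gene probe set names, 3 had a signal at the floor or above: Mmp13 and Mmp12 in all 4 populations, and the neutrophil collagenase Mmp8 in the CD11b+ cells alone (215 against 32.1 or less in the others). Mmp1b, Mmp3, Mmp1a, Mmp10, Mmp20 and Mmp7 were under the floor in every population. The neighbours Mmp13 and Mmp12 shared high signals in the CX3CR1- cells, and differed in the CX3CR1high macrophages, where Mmp13 was at 100.0% of its highest signal and Mmp12 at 27.7%.

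**Figure D2:**
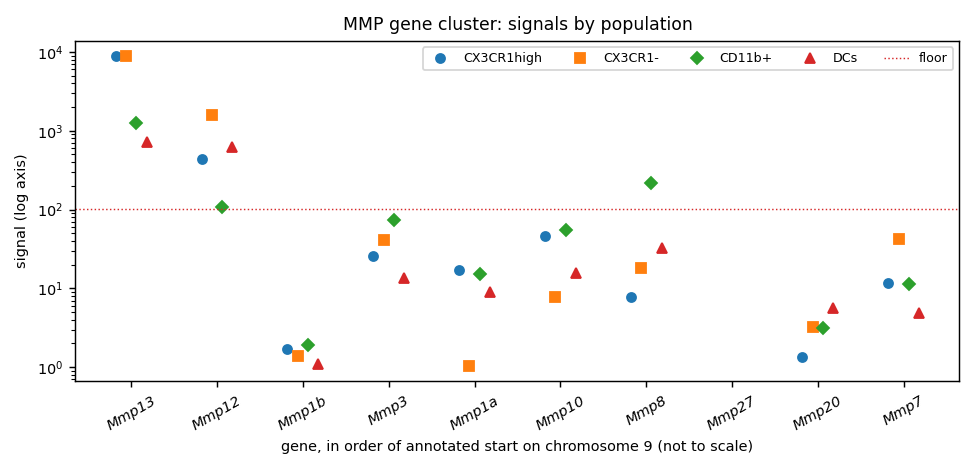
Signals (log axis) of the MMP genes of chromosome 9 in the order of their annotated starts, with 1 symbol per population and the floor as a dotted line; Mmp27 has no single-gene probe set. Symbols are to be compared within a gene: Mmp13 and Mmp12 were above the floor in all 4 populations, and Mmp8 in the CD11b+ cells only.

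The sequences around the starts of Mmp13, Mmp12 and Mmp3 are shown because these close neighbours share motifs and had different signals. Each runs from 150 bases before to 10 bases from the start that RefSeq annotates (GRCm38.p6, 5′ to 3′ on the gene's + strand). Capitals mark the AP-1 motif TGAGTCA on either strand and the TATA motif TATAAA. For Mmp12 the downstream of 2 annotated starts is shown.
Mmp13, chr9:7272364-7272523: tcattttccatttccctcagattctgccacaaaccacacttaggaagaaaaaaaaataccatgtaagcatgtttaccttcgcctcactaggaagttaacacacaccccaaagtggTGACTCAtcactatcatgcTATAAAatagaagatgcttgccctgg
Mmp12, chr9:7347224-7347383: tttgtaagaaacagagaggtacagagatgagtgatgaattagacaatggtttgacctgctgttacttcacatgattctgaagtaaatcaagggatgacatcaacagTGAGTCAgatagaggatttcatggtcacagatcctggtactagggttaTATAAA
Mmp3, chr9:7445672-7445831: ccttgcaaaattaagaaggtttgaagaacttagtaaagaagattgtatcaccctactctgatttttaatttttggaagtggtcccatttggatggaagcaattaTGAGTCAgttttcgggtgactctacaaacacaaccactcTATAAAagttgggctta

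The AP-1 match began 35 bases before the annotated start of Mmp13, 44 before that of Mmp12 and 46 before that of Mmp3. The TATA match began 16 bases before the annotated start of Mmp13 and 7 before that of Mmp3. For Mmp12 it began at base 5 counted from the annotated start, so after that start. Of all 32851 RefSeq windows of 300 bases around gene starts, 5.20% held TGAGTCA or its reverse complement and 13.6% held TATAAA or its reverse complement. Among the 12566 windows of genes on the array the shares were 4.73% and 9.81%. RefSeq windows were found for 7 of the 9 genes, and Mmp2 and Mmp9 had none. The window of the upstream Mmp12 start and those of Mmp14, Timp1, Timp2 and Timp3 held neither motif. The GC box GGGCGG, found on either strand in 35.7% of all windows and 55.4% of those of genes on the array, was in the windows of Mmp14, Timp1, Timp2 and Timp3 and in none of Mmp3, Mmp12 or Mmp13. A match describes the letters of a window only, and no binding was measured.

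Mmp9, gelatinase B, cuts denatured and basement membrane collagen and is known from neutrophils and macrophages. Its signal was 878 in the CX3CR1high macrophages, 771 in the CX3CR1- cells, 767 in the CD11b+ cells and 19.6 in the DCs. The 3 CD11b-bearing populations were within 1.14-fold of each other, and the DCs were under the floor, at least 7.46-fold below the lowest of them. The other probe set of Mmp9 also put the DCs lowest (6.26), but it spread the rest. It gave 848 in the CX3CR1high macrophages against 324 in the CX3CR1- cells and 383 in the CD11b+ cells. By that set the CX3CR1high macrophages were 2.61-fold and 2.22-fold higher, so whether Mmp9 differed 2-fold among the CD11b-bearing populations depended on the probe set. The 9 measured markers of neutrophils summed to 9192 in the CD11b+ cells, 2165 in the CX3CR1high macrophages, 701 in the CX3CR1- cells and just 360.0 in DCs. Most of the CD11b+ sum came from S100a8 (4058), S100a9 (3416) and Csf3r (1149), and Cxcr2, Mpo and Elane were under the floor in every population. In the CX3CR1- cells 8 of the 9 were under the floor, S100a8 and S100a9 among them. The part of neutrophils in the Mmp9 levels was not tested.

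Mmp14 is a membrane-bound protease that cuts collagen and activates pro-Mmp2 at the cell surface. Its signal was 2147 in the CX3CR1high macrophages, 2566 in the CX3CR1- cells, 2249 in the CD11b+ cells and 211 in the DCs. The 3 CD11b-bearing populations differed by at most 1.20-fold, and the DCs lay 10.2-fold to 12.1-fold below them. Its other probe set was near the floor and gave 137, 119, 145 and 28.7 in the same order, which again put the DCs lowest.

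Mmp2, gelatinase A, is a product of fibroblasts in many tissues. Its signal was 1387 in the CD11b+ cells, followed by 683 in the CX3CR1- cells, 557 in the CX3CR1high macrophages and 245 in the DCs. The CD11b+ cells were 2.03-fold above the CX3CR1- cells and 2.49-fold above the CX3CR1high macrophages, while these 2 differed by 1.23-fold. The other probe set gave the same highest and lowest population, with 1705 in the CD11b+ cells, 812 in the CX3CR1high macrophages, 778 in the CX3CR1- cells and 102 in DCs. The probe sets differed most over the DCs: the CX3CR1high macrophages were 2.27-fold higher by the set taken and at least 7.89-fold higher by the other. The set taken is of a type that can match more than 1 transcript.

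Mmp3, a stromelysin that cuts many matrix proteins and activates other MMPs, was at 25.6, 40.7, 72.9 and 13.5 in the CX3CR1high macrophages, CX3CR1- cells, CD11b+ cells and DCs. All 4 values lay under the floor, so Mmp3 has no ratio and its order is not read.

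Among the inhibitors, Timp2 had the widest spread and was highest in the CX3CR1high macrophages. Timp2 inhibits MMPs and also links Mmp14 to pro-Mmp2. Its signal was 5904 in the CX3CR1high macrophages, followed by 2484 in the CD11b+ cells, then 1448 in the CX3CR1- cells and last 344 in the DCs. The CX3CR1high macrophages stood 2.38-fold above the CD11b+ cells, 4.08-fold above the CX3CR1- cells and 17.2-fold above the DCs. Of its 6 probe sets, 5 reached the floor, and all 5 had their highest signal in the CX3CR1high macrophages. Over the CX3CR1- cells the 4 sets measured on both sides gave 2.30-fold to 5.20-fold. Over the CD11b+ cells they gave 1.29-fold, 1.30-fold, 1.88-fold and 2.38-fold, so only the set taken passed the 2-fold limit there.

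Timp1, which is strongly induced by cytokines in many cell types, was highest in the CX3CR1- cells. Its signal was 1242 there, 652 in the CD11b+ cells, 513 in the CX3CR1high macrophages and 263 in the DCs. Each step in this order was under 2-fold (1.91, 1.27 and 1.95), and the CX3CR1- cells were 2.42-fold above the CX3CR1high macrophages and 4.72-fold above the DCs. Timp1 and Timp2 therefore differed in opposite directions between the 2 CD11c+ CD11b+ populations. Timp1 has 1 probe set.

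Timp3 binds to the matrix and also inhibits ADAM17, the enzyme that sheds TNF. Its signal was 993 in the CD11b+ cells, 542 in the CX3CR1high macrophages, 436 in the CX3CR1- cells and 102 in DCs, just under the floor. The CD11b+ cells were 1.83-fold above the CX3CR1high macrophages and 2.27-fold above the CX3CR1- cells. Both other probe sets that reached the floor also had their highest signal in the CD11b+ cells (587 and 325) and their lowest in the DCs (96.4 and 35.0).

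Counts over the 8 genes with a ratio were set beside those over all genes. CX3CR1high macrophages over CD11b+ cells had 3 of 8 members higher (Mmp12, Mmp13 and Timp2) and 1 lower (Mmp2), where 4.66% of all genes were higher and 5.83% lower. The median log2 ratio was 0.06 over the members and -0.02 over all genes. The members thus split, with 4 of 8 outside the 2-fold limits and a median near that of all genes.

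CX3CR1high macrophages over CX3CR1- cells had 1 of 8 higher (Timp2) and 2 lower (Mmp12 and Timp1), against 8.56% and 6.54% of all genes. The median log2 ratio was -0.13 over the members and 0.02 over all genes. These are the 2 populations with the same CD11c and CD11b gate, and 5 of the 8 members were within 2-fold between them.

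CX3CR1- cells over CD11b+ cells had 2 of 8 higher (Mmp12 and Mmp13) and 2 lower (Mmp2 and Timp3), against 3.55% and 5.19% of all genes. The median log2 ratio was 0.10 over the members and -0.06 over all genes. Mmp2 was close to the limit here, at 2.03-fold. With array medians made equal, genes called higher were 51.4% of all called genes in this comparison, against 40.6% on the authors' scale.

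Over the DCs most members were higher in each other population. CX3CR1high macrophages over DCs had 6 of 8 higher and 0 lower, against 17.4% and 10.2% of all genes. The members outside this count were Mmp12 and Timp1 (1.95-fold higher). CX3CR1- cells over DCs had 8 of 8 higher and 0 lower, against 13.7% and 8.70% of all genes. CD11b+ cells over DCs had 6 of 8 higher and 1 lower (Mmp12, 5.75-fold), against 17.0% and 10.4% of all genes, with Mmp13 at 1.73-fold. The median log2 ratios over the members were 2.75, 2.16 and 2.68 in these comparisons, against 0.02, 0.04 and 0.07 over all genes. Mmp9 and Timp3 are in all 3 counts and lay under the floor in the DCs alone, so over the DCs they could only be called higher. The 3 comparisons share the DC array, so they are not separate measurements of the DCs.

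The DC array had a lower median than that of the CX3CR1high macrophages by 0.31 log2 units. With equal medians, genes called higher made up 42.1%, 43.4% and 41.6% of all called genes over the DCs, against 63.1%, 61.2% and 62.0% on the authors' scale. In the CX3CR1high macrophages over DCs the log2 ratios were 4.10 for Timp2, 3.61 for Mmp13, 3.34 for Mmp14 and at least 3.09 for Mmp9. Those of the other members were at least 2.40 for Timp3, 1.19 for Mmp2, 0.96 for Timp1 and -0.51 for Mmp12. Mmp2 there, and Timp1 in the CD11b+ cells over DCs (1.31), passed the 2-fold limit by less than that shift.

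**Figure D3:**
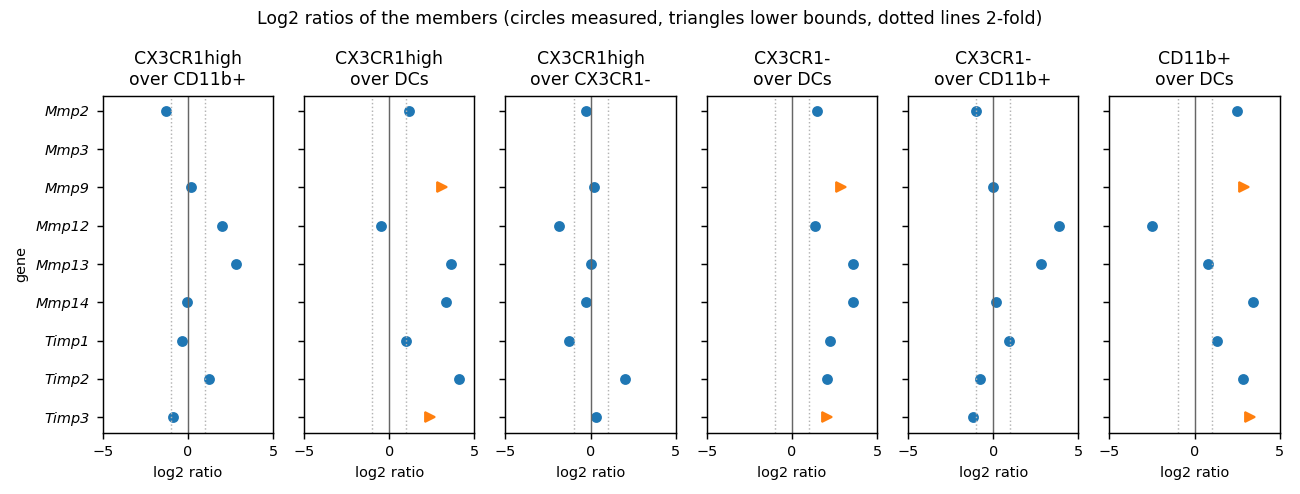
Log2 ratios of the 9 genes in each of the 6 pairs of populations, with 1 array per population; circles are ratios measured on both sides, triangles lower bounds, dotted lines mark 2-fold, and Mmp3 has no ratio. All 8 members with a ratio lie to the right of 0 in CX3CR1- cells over DCs and 7 of 8 in the other 2 pairs over the DCs, where Mmp12 lies to the left; in the remaining 3 pairs members lie on both sides.

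Markers of fibroblasts differed between the arrays in the same order of highest and lowest as Mmp2. The 14 fibroblast markers, all measured, summed to 75268 in the CD11b+ cells, against 25663 in the CX3CR1- cells, 19064 in the CX3CR1high macrophages and 5928 in the DCs. All 14 were at the floor or above in the CD11b+ cells and 8 in the DCs, where Pdgfra, Pdgfrb, Mfap4, Prelp, Mfap5 and Loxl1 were under it. CX3CR1high macrophages over CD11b+ cells had 0 of 14 higher and 14 lower (median log2 ratio -1.87), against 4.66% and 5.83% of all genes. The proteoglycan Dcn was at 15299 in the CD11b+ cells and 4005 in the CX3CR1high macrophages, and the matricellular gene Postn at 7395 and 2111. As shares of the highest population, the fibroblast sum stood at 34.1% in the CX3CR1- cells, 25.3% in the CX3CR1high macrophages and 7.88% in the DCs. Mmp2 stood at 49.3%, 40.2% and 17.7% and Timp3 at 44.0%, 54.6% and 10.3% in that order. Monocyte markers were highest in the CD11b+ cells as well, with 7 measured genes summing to 62879 there, 32327 in the CX3CR1- cells, 23211 in the CX3CR1high macrophages and 23611 in DCs. Smooth muscle markers, 6 in all, differed little outside the DCs (3441 in CD11b+ cells, 3111 in CX3CR1high macrophages, 3009 in CX3CR1- cells and 744 in DCs). Lists with no tie to fibroblasts were also highest in the CD11b+ cells. They include the summed T, NK and B cell markers, the ADAM and ADAMTS proteases and the AP-1 and ETS factors. The part of other cells in the levels of Mmp2 and Timp3 was not tested.

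Members with a ratio other than Mmp2 and Timp3 were not highest in the CD11b+ cells. Mmp13, Mmp12 and Timp2 were lower in the CD11b+ cells than in the CX3CR1high macrophages by more than 2-fold, and Mmp9 by 1.14-fold. Mmp14 and Timp1 were highest in the CX3CR1- cells. The part of fibroblasts in the levels of these genes was not tested. Epithelial markers were highest on the CX3CR1high array, with 11 measured markers summing to 19404 there, 7011 in the CX3CR1- cells, 2984 in the CD11b+ cells and 4073 in the DCs. Their part in the levels of Mmp13, Mmp12 and Timp2 was not tested.

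**Figure D4:**
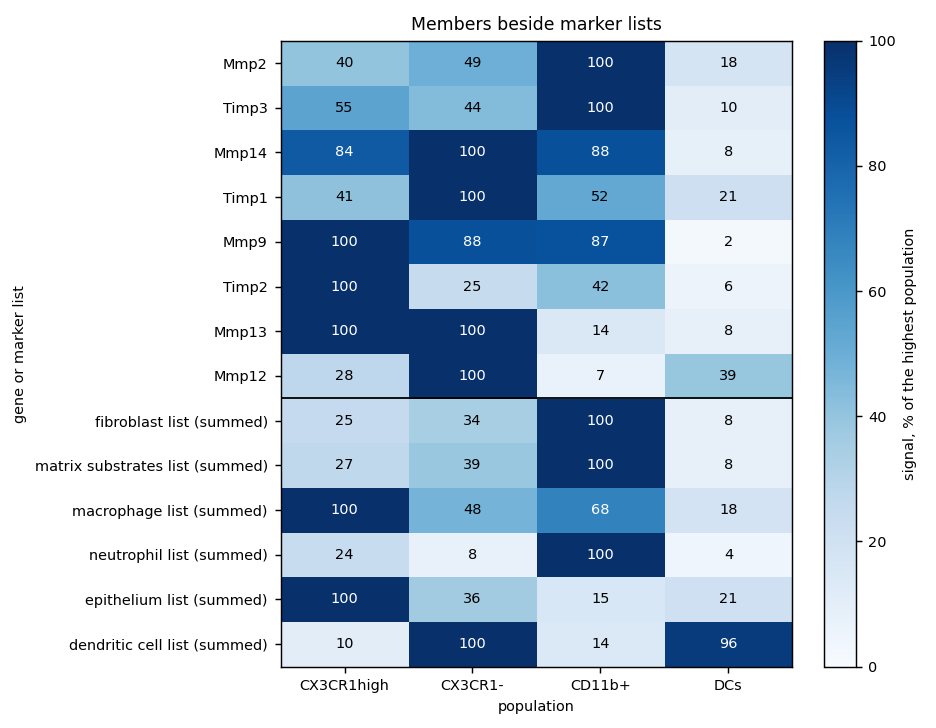
Signal of each gene, and summed signal of each marker list, as a percent of its highest population (colour and number; 1 array per population; the gene's taken probe set). Mmp2 and Timp3 are highest in the CD11b+ cells, as are the fibroblast, matrix and neutrophil lists. Timp2 is highest in the CX3CR1high macrophages, as are the macrophage and epithelium lists.

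The substrates of these enzymes were lowest in the DCs and highest in the CD11b+ cells. Of 23 measured matrix genes, 0 were higher and 20 lower for CX3CR1high macrophages over CD11b+ cells (median log2 ratio -1.77), against 4.66% and 5.83% of all genes. Col1a1, Col1a2, Col3a1, Dcn and Lum also stand in the fibroblast list. Fibronectin (Fn1), which macrophages also make, was at 8235 in the CD11b+ cells, then 5494 in the CX3CR1- cells, 1753 in the CX3CR1high macrophages and 274 in the DCs. The collagen Col5a1 was at 2013 in the CD11b+ cells and 393 in the CX3CR1high macrophages. Col6a1 and the proteoglycan Bgn were also highest in the CD11b+ cells, at 3246 and 6093. Mmp13 was 7.07-fold higher in the CX3CR1high macrophages in this comparison. Over the DCs, where Mmp13 was 12.2-fold higher, 20 of the 23 matrix genes were higher and 0 lower, against 17.4% and 10.2% of all genes.

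Few other members of the family had a signal. Of 18 further genes (17 MMPs and Timp4), 13 were measured and 3 reached the floor in any population. Mmp19, which is found in macrophages among other cells, was at 985 in the CX3CR1high macrophages, 732 in the CX3CR1- cells, 525 in the CD11b+ cells and 299 in the DCs. Its other probe set, at 253, 189, 163 and 147, kept that order. Mmp23 (269) and Mmp8 (215) reached the floor in the CD11b+ cells only, at least 2.61-fold and at least 2.09-fold above the others. The other probe set of Mmp23 was at 132 in the CD11b+ cells and at 66.9 or less elsewhere, a bound under 2-fold. A gene that reached the floor in 1 population alone can only be called higher there, so no direction is read from these counts.

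Genes that activate MMPs or clear them were read from a list of 23, of which 20 were measured. In the CX3CR1high macrophages over CD11b+ cells, 2 of 14 with a ratio were higher and 4 lower (median log2 ratio -0.47), against 4.66% and 5.83% of all genes. Plau, the urokinase that turns plasminogen into plasmin, was at 683 in the CX3CR1high macrophages, 203 in the CX3CR1- cells, 146 in the CD11b+ cells and 37.9 in the DCs, so it was highest where Timp2 was. Klk1, a kallikrein protease, also had its highest signal there, at 924. Lrp1, the receptor that takes up MMPs and TIMP-bound MMPs, was at 137 in the DCs and between 1604 and 2500.1 in the others. Thbs1, which binds Mmp2 and Mmp9, was at 15215 in the CD11b+ cells and 327 in the DCs.

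The related ADAM and ADAMTS proteases, which shed surface proteins or cut proteoglycans, gave 0 of 12 higher and 4 lower in the CX3CR1high macrophages over CD11b+ cells (median log2 ratio -0.08), against the same shares of all genes. Adamdec1, a protease of gut macrophages and stroma, was at 26185 in the CD11b+ cells, then 9429 in the CX3CR1- cells, 6956 in the CX3CR1high macrophages and 1574 in the DCs. Adamts4, an aggrecanase, resembled Mmp14 in being level in the 3 CD11b-bearing populations (589, 591 and 558) and low in the DCs (108). Adamts1 was highest in the CD11b+ cells, at 1600 against 721 in the CX3CR1high macrophages, and so was Adamts10, at 402 against 124.

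AP-1 and ETS factors, families known to act on MMP promoters, were compared, the AP-1 factors because of the motifs above. No ETS motif was searched for. Of 15 with a ratio, 0 were higher and 0 lower in the CX3CR1high macrophages over CD11b+ cells (median log2 ratio 0.31), against 4.66% and 5.83% of all genes. Over the DCs 9 of 16 were higher and 1 lower, against 17.4% and 10.2% of all genes. The part of these factors in the MMP levels was not tested. The lower one was Batf3, a factor of conventional DCs, at 325 in the CX3CR1high macrophages and 1285 in the DCs. Fosl1 was at 1013 and 87.0, Ets2 at 8835 and 597, and Atf3 at 7187 and 1625 in the same 2 populations.

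Genes of like pattern were ranked by the root mean square difference of their log2 signals from those of the member over the 4 populations. Signals under the floor were set to it, and each gene was then centred on its own mean. Only genes under the floor in the same populations were compared. For Mmp9 and Timp3 the DC value was thus the floor in every gene compared, so their real DC signals were not compared. With 4 points per gene the ranking is a description. For Mmp2 the nearest of 5800 genes were Ptch1 (0.077), Nid1 (0.106), a basement membrane gene, and Ckap4 (0.117). For Timp3 they were Cavin1 (0.159), Akap12 (0.187) and Apoc2 (0.208), of 496 genes. For Timp2 they were Dab2 (0.167), Serpinb6a (0.179) and the adhesion molecule Vcam1 (0.186).

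Mmp14 was nearest to Zfhx3 (0.140), Sirpa (0.147), a surface receptor of macrophages and CD11b+ DCs, and Pltp (0.195). Mmp9 was nearest to Lifr (0.184), Tlr1 (0.191) and Camk1 (0.192). Timp1 was nearest to Krt80 (0.078), Rcsd1 (0.171) and Pacs2 (0.174).

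Mmp12 and Mmp13 had no gene as close. The nearest to Mmp12 were the actin-bundling gene Fscn1 of mature DCs (0.418), Arap2 (0.559) and Ccnd2 (0.580). Fscn1 was at 7615 in the CX3CR1- cells, 4159 in the DCs, 1579 in the CX3CR1high macrophages and lowest, 819, in the CD11b+ cells. The nearest to Mmp13 were Gpnmb (0.490) and the lectins Mgl2 (0.603) and Clec10a (0.715). Gpnmb was at 3822 in the CX3CR1high macrophages and 1809 in the CX3CR1- cells, Mgl2 at 2291 and 3255, and Clec10a at 1952 and 2596. All 3 were lower in the CD11b+ cells and lowest in the DCs, as Mmp13 was.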

How the data were processed

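RNA of 4 sorted populations was labelled with biotin and hybridised to 1 Affymetrix 3′ array each, per the labels. The authors deposited 1 linear signal intensity for each probe set. The submitters' processing notes name MAS5, and no version or genome build is given in the sources used here. Depth has no counterpart on an array, and the number of arrays limits precision. In the values the mean with 2% trimmed from each end was 500.3 on each array, and the signals were used as scaled.

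Of 22690 probe sets, 64 were controls and 20380 named 1 gene, 691 several and 1555 none in the platform's table; 99.9% of those naming 1 gene matched RefSeq by Entrez number. Each gene is read from its brightest probe set by mean log2 signal, sets ending in _x_at last. The floor is the pooled median and a call needs 2-fold. Tried instead, 1 at a time, were 8 alternatives: a lower floor (25th percentile), a higher one (75th), none at all, a pseudocount at the 25th percentile in its place, equal medians, quantile normalization, the mean over probe sets, and no probe sets that can match several transcripts. The 15 lists held 202 genes, 178 of them measured. Named beyond the 9 members are up to 4 genes per list, by highest over lowest population, and the 3 nearest genes per member. The members and lists were chosen with earlier results of these data known. Ratios and calls were tested on simulated data with known folds. Promoter sequences and gene order are from RefSeq, GRCm38.p6. Python 3.11.15, numpy 2.4.6, pandas 2.3.3 and matplotlib 3.10.9 were used.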

Additional observations from a re-analysis of the deposited data

How the results depend on the processing

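With 1 array per population no alternative has a test, and probe set ratios carry no error between mice. Of 96 member counts under the 8 alternatives, 88 stayed within 1.5 times the count given. With the floor at the pooled 75th percentile, members higher over the DCs numbered 3 in the CX3CR1high macrophages and 5 in the CX3CR1- cells, and members lower in the CD11b+ cells than in the DCs numbered 0. The higher floor brought ratios closer to 0. The log2 ratio of Mmp2 in the CX3CR1high macrophages over DCs became 0.30, and that of Mmp12 in the CD11b+ cells over DCs -0.45. Mmp12 in the CX3CR1- cells over CD11b+ cells went from a log2 ratio of 3.87 to 1.79. Timp3 had no ratio left in the CX3CR1- cells over DCs, nor Mmp12 in the CX3CR1high macrophages over CD11b+ cells. For CX3CR1high macrophages over CD11b+ cells, members called lower numbered 2 with the floor at the pooled 25th percentile and 2 with no floor. The added member was Mmp3 (25.6 against 72.9), which lay under the main floor in every population and whose order is not read. Members lower in the CX3CR1- cells than in the CD11b+ cells numbered 1 with a pseudocount, 1 with equal medians and 1 with all probe sets of a gene averaged. Of 382 single ratios, 335 moved by less than the SD between probe sets, 47 by more, and 0 of those called changed direction. No paired analysis was possible because each population has 1 array. Signals under the floor, as for Mmp3, limit what can be read.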
